A study of Homo sapiens with 12 samples.

Results

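Integrins are cell surface receptors for the extracellular matrix and laminins are basement membrane proteins that some of them bind. Every probe set annotated to a single integrin alpha, integrin beta or laminin chain gene was taken, by its symbol alone. This gave 35 genes with 1 probe set each, 25 integrins and 10 laminins, of 18404 genes measured. ITGA1 and LAMA3 are not described because no probe set named them alone.

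RNA was measured in the human embryonal carcinoma lines 2102Ep and NTera-2 on arrays with probes spread over the length of each transcript. There were 4 groups of 3 arrays: 2102Ep cells with an siRNA against SOX2 (siSOX2), 2102Ep cells with the non-targeting Silencer Select Negative Control #1, NTera-2 cells with siSOX2, and NTera-2 cells with that same control siRNA. All cells were seeded 24 hours ahead, transfected for 6 hours and harvested after a further 72 hours in growth medium. Lipofectamine 2000 was used for 2102Ep and Lipofectamine RNAiMAX for NTera-2, with different amounts of siRNA, so the line, the reagent and the siRNA amount cannot be told apart in any comparison between lines. A single siRNA targeted SOX2, so its effects on other transcripts cannot be told apart from loss of SOX2.

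SOX2 itself had a mean log2 signal of 9.09 in 2102Ep siSOX2 cells, against 12.23 in their controls, and 11.91 in NTera-2 siSOX2 cells, against 12.56 in theirs. The measured fall was therefore 3.14 on the log2 scale in 2102Ep and 0.64 in NTera-2. These are RNA values, and the authors report that a Western blot detected no SOX2 protein in siSOX2 cells of either line. Embryonal carcinoma markers (7 of 8 measured, SOX2 among them) had an array mean of 10.73 to 10.96 in 2102Ep siSOX2 cells, against 11.44 to 11.68 in control cells. In NTera-2 it was 11.49 to 11.64 in siSOX2 cells, against 11.68 to 11.92 in control cells. The targeted SOX2 is thus part of these means. By a limma p adjusted over all genes (0.05 or less), 4 of the 7 fell and 0 rose in 2102Ep, where 12.7% of all genes passed. In NTera-2 3 of the 7 fell and 0 rose, where 4.94% of all genes passed. LIN28A, PODXL and SALL4 were not lower in 2102Ep, with means of 12.91, 12.71 and 10.83 in siSOX2 cells, against 12.89, 12.60 and 10.76 in control cells. In NTera-2 LIN28A and SALL4 were not lower, with means of 13.11 and 11.31 in siSOX2 cells, against 12.68 and 11.13 in control cells. Extraembryonic endoderm markers (7 of 8) had an array mean of 7.80 to 8.09 in 2102Ep siSOX2 cells, against 7.61 to 7.78 in control cells, and GATA6 rose there by 1.28. In NTera-2 their array mean was 7.67 to 7.81 in siSOX2 cells, against 7.52 to 7.74 in control cells. The median change of the 7 was 0.11 in each line. In 2102Ep 2 of the 7 passed the adjusted p and in NTera-2 1 did, beside 12.7% and 4.94% of all genes. In 2102Ep leukocyte markers (7 of 8) ran from 6.83 to 6.96 in siSOX2 cells, against 7.003 to 7.27 in control cells. The median change of the 7 was only -0.05. CD53 fell by 1.08 and was the only 1 past the adjusted p. CORO1A was lower, at 7.88 against 8.31, LCP2 was higher, at 6.48 against 6.22, and TYROBP stood at 8.46 against 8.43. The defining marker PTPRC stood at 4.20 against 4.30. Endothelial markers (7) ran from 6.98 to 7.03 in 2102Ep siSOX2 cells, against 7.29 to 7.39 in control cells. In NTera-2 they ran from 6.98 to 7.17 in siSOX2 cells, against 7.08 to 7.10 in control cells. Their median change was -0.31 in 2102Ep and 0.002 in NTera-2. In 2102Ep 2 of the 7 passed the adjusted p and in NTera-2 0 did, beside 12.7% and 4.94% of all genes. The part of any such shift in the results below was not tested. The array of 2102Ep control replicate 2 was the lowest of its 3 for 24 of the 35 genes, against 43.8% of all genes, and that of NTera-2 siSOX2 replicate 3 was the highest of its 3 for 22 of the 35, against 60.6% of all genes.

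An integrin is a pair of an alpha and a beta chain, and the pair decides the ligand. ITGA5 pairs with ITGB1 to bind fibronectin, ITGAV pairs with several beta chains to bind proteins with an RGD sequence, including latent TGF-beta, and ITGA3, ITGA6 and ITGA7 form receptors for laminin. Laminins are trimers of an alpha, a beta and a gamma chain that build the basement membrane. Human pluripotent cells in culture attach to laminin and vitronectin through such receptors.

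The promoters of the 4 genes that changed at least 2-fold after siSOX2 are shown, because these genes moved in the same samples. Each run is the 250 bases before the outermost RefSeq start, on the strand of the gene (build GRCh38.p14), with GC boxes (GGGCGG on either strand) in capitals. The windows are chr12:54419267-54419516 on the minus strand for ITGA5, chr2:186589806-186590055 on the plus strand for ITGAV, chr7:20330650-20330899 on the plus strand for ITGB8 and chr2:172427086-172427335 on the plus strand for ITGA6.
ITGA5: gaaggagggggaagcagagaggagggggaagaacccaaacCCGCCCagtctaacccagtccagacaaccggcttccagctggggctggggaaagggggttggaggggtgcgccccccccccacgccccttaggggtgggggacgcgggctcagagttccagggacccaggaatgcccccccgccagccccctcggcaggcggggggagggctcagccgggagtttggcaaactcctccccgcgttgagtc
ITGAV: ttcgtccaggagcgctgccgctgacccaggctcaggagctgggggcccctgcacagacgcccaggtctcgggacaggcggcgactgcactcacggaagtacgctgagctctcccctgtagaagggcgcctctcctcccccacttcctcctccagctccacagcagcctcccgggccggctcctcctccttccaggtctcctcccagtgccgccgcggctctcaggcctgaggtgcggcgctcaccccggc
ITGB8: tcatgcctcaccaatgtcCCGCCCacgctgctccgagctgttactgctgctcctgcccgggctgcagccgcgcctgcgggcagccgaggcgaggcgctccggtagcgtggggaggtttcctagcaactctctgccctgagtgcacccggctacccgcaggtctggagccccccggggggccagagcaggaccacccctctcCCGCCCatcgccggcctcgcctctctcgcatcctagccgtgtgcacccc
ITGA6: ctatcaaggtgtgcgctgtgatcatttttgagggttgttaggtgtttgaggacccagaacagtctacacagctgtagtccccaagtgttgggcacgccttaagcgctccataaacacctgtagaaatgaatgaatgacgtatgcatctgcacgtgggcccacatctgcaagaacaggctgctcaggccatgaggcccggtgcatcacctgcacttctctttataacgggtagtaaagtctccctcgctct

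ITGA5 carried 1 GC box in this window and ITGB8 carried 2, while the ITGAV and ITGA6 windows carried 0. ITGA6 has another start in the table, whose window carried 3. G and C made up 70% of the ITGA5 window, 70.8% of that of ITGAV, 71.2% of that of ITGB8 and 50.8% of that of ITGA6. Across 31 windows of the 24 genes matched by symbol, 16 carried a GC box (51.6%), against 42.6% of the 35116 windows in the table. The SOX-type letters AACAAAG or AACAATG, searched on both strands, were in 0 of the 31 windows, against 7.1% of all windows, which says only that these letters are not in these stretches. ITGA3, ITGA7, ITGA9, ITGAD, ITGAL, ITGAX, ITGB2, ITGB3, ITGB4, LAMA1 and LAMC3 were not matched.

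In 2102Ep cells siSOX2 was followed by higher ITGA5, ITGAV and ITGB8 and lower ITGA6, while 0 of 10 laminin genes passed the same threshold. To be called, a gene needed a limma p, adjusted by Benjamini-Hochberg over all genes, of 0.05 or less, an unadjusted p of 0.01 or less and a 2-fold change (1 in log2 units) or more. By this rule 4 of the 35 genes were called in 2102Ep, against 1.98% of all genes. The 3 higher ones stand beside 1.15% of all genes called higher, and the 1 lower one beside 0.826% called lower. All 4 were integrins. In NTera-2 cells 0 of the 35 were called, against 0.657% of all genes, and 7 had an unadjusted limma p under 0.05, as did 14.8% of all genes. By the adjusted p alone 7 of the 35 passed in 2102Ep, against 12.7% of all genes, and 2 in NTera-2, against 4.94%. The arrays of siSOX2 and control cells did not overlap for 12 of the 35 in 2102Ep, where 25.2% of all genes did not overlap, and for 8 of the 35 in NTera-2, where the share was 21.3%. The median log2 change of the 35 was 0.10 in 2102Ep and 0.02 in NTera-2, beside medians over all genes of -0.01 and 0.04.

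**Figure D1:**
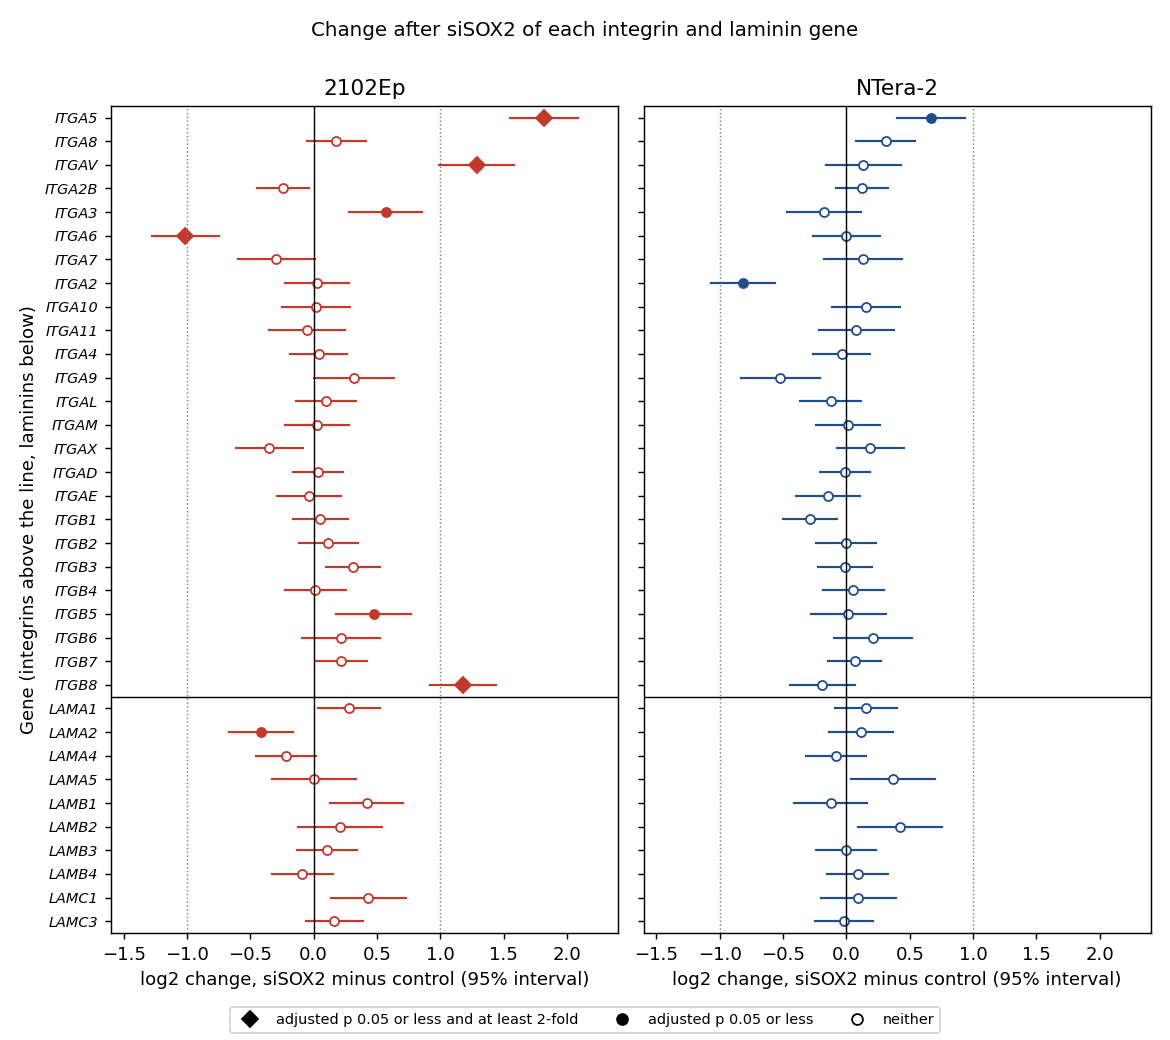
Log2 change (siSOX2 minus control, horizontal axis) with its 95% interval for each of the 35 genes, in 2102Ep (left) and NTera-2 (right). Diamonds mark genes at least 2-fold changed with an adjusted p of 0.05 or less, filled circles an adjusted p of 0.05 or less only, and dotted lines 2-fold. The 4 diamonds, ITGA5, ITGAV, ITGB8 and ITGA6, are all in the 2102Ep panel.

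**Figure D2:**
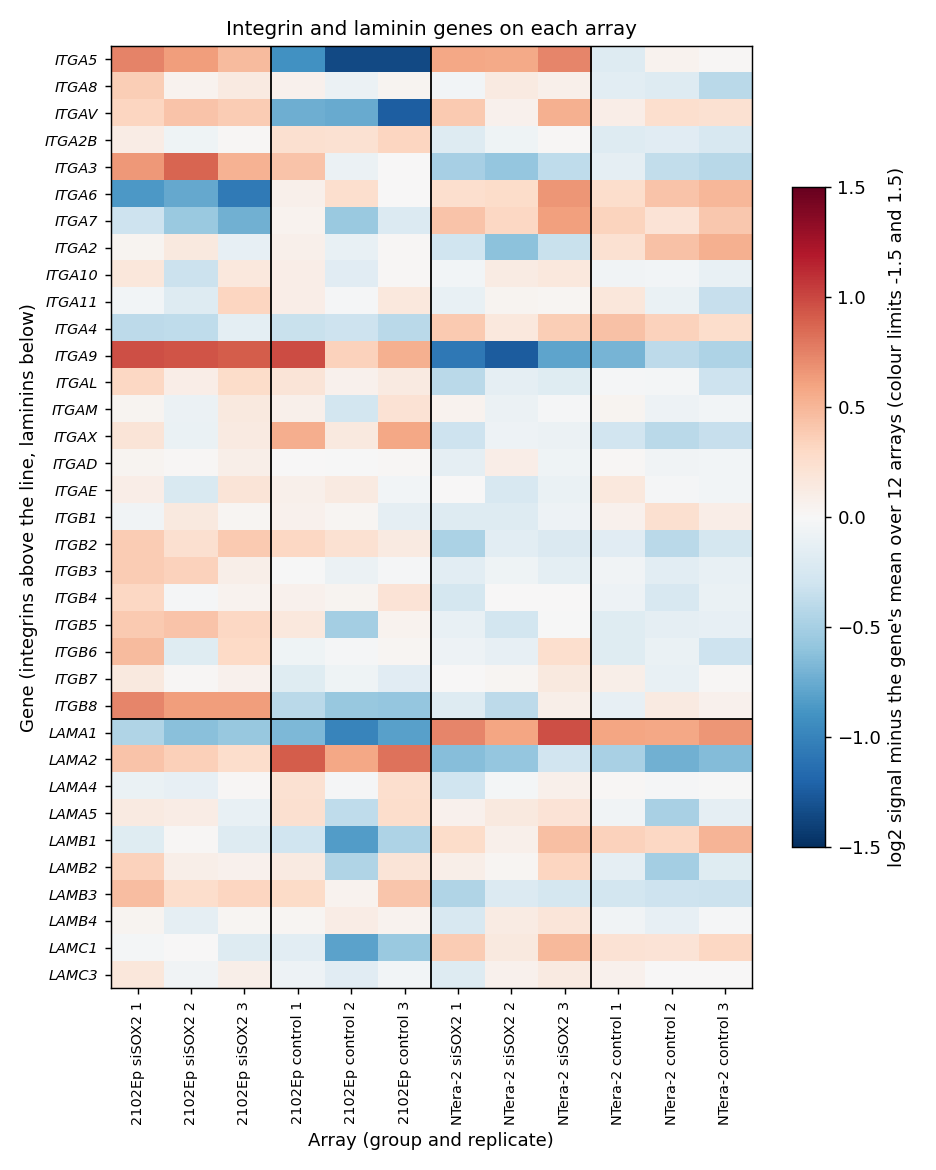
Log2 signal of each of the 35 genes (rows) on each of the 12 arrays (columns, by group and replicate), as the difference from the mean of that gene over the 12 arrays. The 2102Ep control arrays are low for ITGA5 and ITGAV, the 2102Ep siSOX2 arrays are low for ITGA6, and LAMA1 and LAMA2 differ mainly between the lines.

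ITGA5, the alpha chain of the fibronectin receptor, had log2 signals of 10.63, 10.51 and 10.36 in 2102Ep siSOX2 cells, against 8.97, 8.54 and 8.53 in 2102Ep control cells. Its NTera-2 signals were 10.46, 10.46 and 10.62 in siSOX2 cells, against 9.70, 9.94 and 9.90 in control cells. All siSOX2 arrays lay above all control arrays in both lines, and the 2102Ep control arrays were the lowest of all. ITGA5 rose 3.53-fold in 2102Ep (log2 change 1.82 ± 0.13, SE, adjusted p = 1.79e-08, limma) and 1.58-fold in NTera-2 (0.66 ± 0.13, adjusted p = 0.00359), where it passed the adjusted p but not 2-fold. It was the only one of the 35 genes to pass the adjusted p in both lines. The group means after siSOX2 were 10.50 in 2102Ep and 10.51 in NTera-2, while those of the controls were 9.85 in NTera-2 and 8.68 in 2102Ep.

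ITGAV, the alpha chain shared by the vitronectin-type receptors, had 9.45, 9.56 and 9.51 in 2102Ep siSOX2 cells, against 8.40, 8.38 and 7.89 in 2102Ep control cells. Signals in NTera-2 were 9.52, 9.20 and 9.66 in siSOX2 cells, against 9.24, 9.39 and 9.36 in control cells. The groups were apart in 2102Ep and overlapped in NTera-2, where siSOX2 replicate 2 lay below every control array. ITGAV rose 2.44-fold in 2102Ep (log2 change 1.29 ± 0.14, SE, adjusted p = 4.27e-06), against a change of 0.13 in NTera-2 (95% interval -0.16 to 0.43, adjusted p = 0.764).

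ITGB8, a beta chain that pairs with ITGAV and binds latent TGF-beta, had 9.23, 9.12 and 9.13 in 2102Ep siSOX2 cells, against 8.09, 7.93 and 7.93 in 2102Ep control cells. Its 3 arrays in each group lay close together, and the groups were a full log2 unit apart. In NTera-2 it had 8.31, 8.11 and 8.59 in siSOX2 cells, against 8.38, 8.64 and 8.57 in control cells, and these overlapped. ITGB8 rose 2.26-fold in 2102Ep (log2 change 1.18 ± 0.12, SE, adjusted p = 2.41e-06), and its change in NTera-2 was -0.19 (95% interval -0.45 to 0.07, adjusted p = 0.546).

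Other beta chains that can pair with ITGAV had smaller measured changes. ITGB5, which makes a vitronectin receptor, had 11.24, 11.29 and 11.16 in 2102Ep siSOX2 cells, against 11.01, 10.35 and 10.92 in 2102Ep control cells. The groups did not overlap, but control replicate 2 stood far below the other two. ITGB5 rose by 0.47 ± 0.14 (SE, adjusted p = 0.0331), and without that array the change was 0.27 with an adjusted p of 0.135. In NTera-2 ITGB5 had 10.75, 10.58 and 10.86 in siSOX2 cells, against 10.68, 10.73 and 10.73 in control cells, a change of 0.02. ITGB3 and ITGB6 did not pass the test in either line, with changes in 2102Ep of 0.31 (adjusted p = 0.0509) and 0.21, although ITGB3 passed there at 0.40 (adjusted p = 0.0222) without 2102Ep siSOX2 replicate 3.

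ITGB1, the beta chain that pairs with most alpha chains, ITGA5 and ITGA6 among them, had 10.86, 11.06 and 10.94 in 2102Ep siSOX2 cells, against 10.98, 10.95 and 10.78 in 2102Ep control cells. The NTera-2 arrays gave 10.72, 10.72 and 10.84 in siSOX2 cells, against 10.97, 11.15 and 11.01 in control cells. The groups overlapped in 2102Ep, and in NTera-2 the siSOX2 arrays lay below the control arrays. Neither change passed the test, at 0.05 in 2102Ep (95% interval -0.16 to 0.27, adjusted p = 0.845) and -0.29 in NTera-2 (95% interval -0.50 to -0.07, adjusted p = 0.149).

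**Figure D3:**
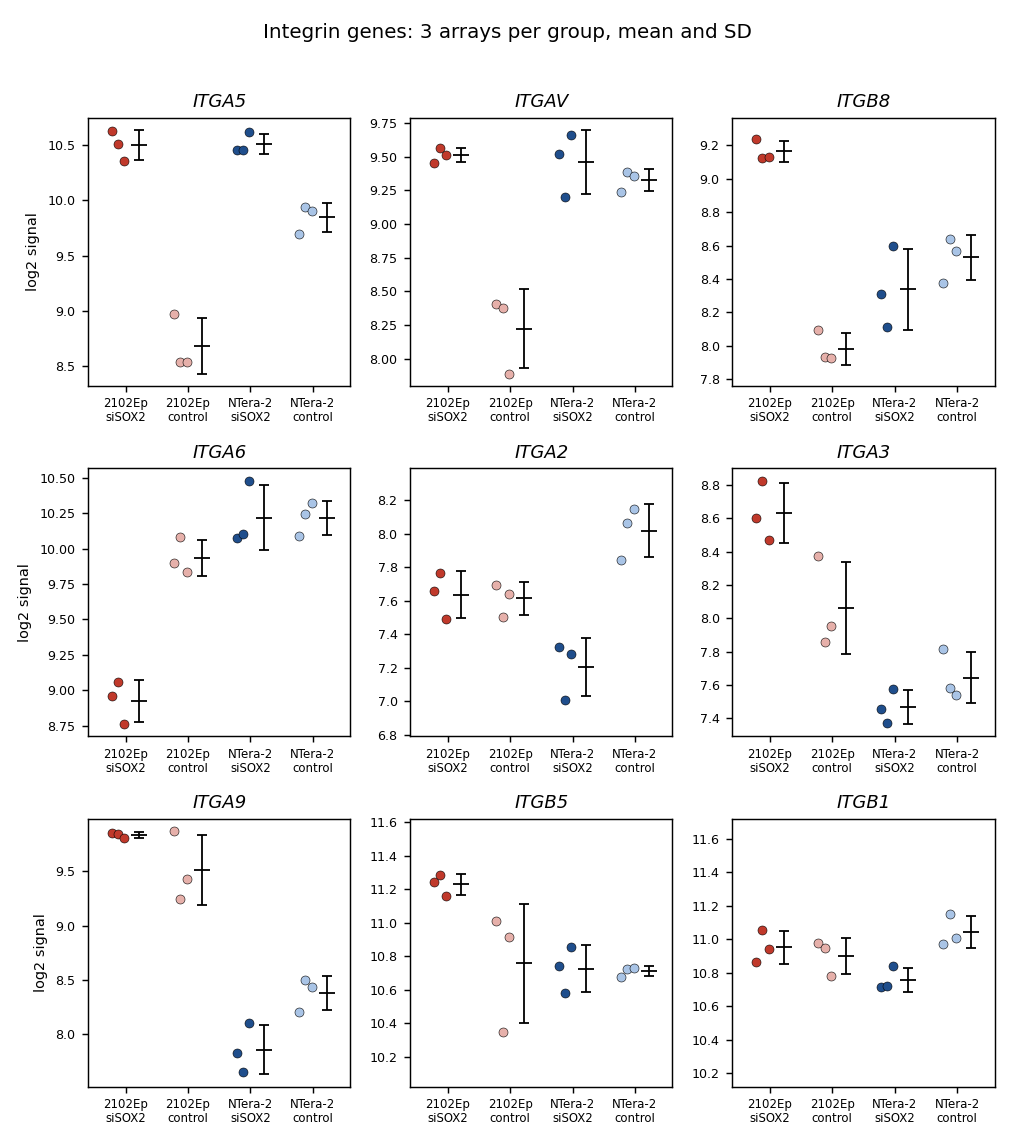
Log2 signal (vertical axis, with its own range in each panel) of 9 integrin genes on each array (points), by line and siRNA, with the group mean and SD (n = 3) as a black bar. In 2102Ep, ITGA5, ITGAV and ITGB8 are higher and ITGA6 is lower with siSOX2 than with the control siRNA. For ITGA5 and ITGAV the 2102Ep siSOX2 arrays are near the NTera-2 siSOX2 arrays, and the 2102Ep control arrays are the lowest. ITGA2 is lowest in NTera-2 siSOX2 cells.

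The laminin-binding alpha chains did not move together in 2102Ep. ITGA6, whose product binds laminin with ITGB1 or ITGB4, had 8.96, 9.05 and 8.76 in 2102Ep siSOX2 cells, against 9.90, 10.08 and 9.83 in 2102Ep control cells. In NTera-2 it had 10.07, 10.10 and 10.48 in siSOX2 cells, against 10.09, 10.25 and 10.32 in control cells. The 2102Ep siSOX2 arrays lay below the other 9 arrays, and the NTera-2 groups overlapped. ITGA6 fell 2.02-fold in 2102Ep (log2 change -1.01 ± 0.13, SE, adjusted p = 2.04e-05), against 0.00 in NTera-2 (95% interval -0.27 to 0.27). The fall was close to the 2-fold threshold, and it was -0.94 without 2102Ep control replicate 2, -0.93 without 2102Ep siSOX2 replicate 3 and -0.996 with arrays centred on their medians, each just under 2-fold.

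ITGA3, another laminin receptor chain, had 8.60, 8.83 and 8.47 in 2102Ep siSOX2 cells, against 8.38, 7.86 and 7.96 in 2102Ep control cells, where replicate 1 came near the siSOX2 arrays. It rose by 0.57 ± 0.14 (log2, SE, adjusted p = 0.00877), under 2-fold, and without 2102Ep siSOX2 replicate 2 the rise was 0.47 and no longer passed. In NTera-2 the siSOX2 and control arrays of ITGA3 overlapped, with a change of -0.18 (adjusted p = 0.652). ITGA7, the muscle-type laminin receptor chain, changed by -0.29 in 2102Ep (adjusted p = 0.242) and by 0.13 in NTera-2 (adjusted p = 0.780). Without 2102Ep control replicate 2 its change in 2102Ep was -0.45 and passed (adjusted p = 0.0384).

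Among the collagen-binding alpha chains, ITGA2 fell in NTera-2. It had 7.33, 7.01 and 7.29 in NTera-2 siSOX2 cells, against 7.84, 8.06 and 8.15 in NTera-2 control cells, which did not overlap. The change was -0.81 ± 0.12 (log2, SE, adjusted p = 0.000354), a 1.76-fold fall that did not reach 2-fold. In 2102Ep it had 7.66, 7.77 and 7.49 in siSOX2 cells, against 7.70, 7.51 and 7.64 in control cells, a change of 0.02 (95% interval -0.23 to 0.28). ITGA10 and ITGA11 had changes between -0.05 and 0.15 in both lines and did not pass the test.

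ITGA9, a receptor chain for tenascin and other ligands, had 9.86, 9.84 and 9.80 in 2102Ep siSOX2 cells, against 9.87, 9.25 and 9.43 in 2102Ep control cells. NTera-2 arrays gave 7.82, 7.65 and 8.10 in siSOX2 cells, against 8.20, 8.50 and 8.43 in control cells. The 2102Ep groups overlapped and the NTera-2 groups did not. Its changes were 0.32 in 2102Ep (adjusted p = 0.209) and -0.52 in NTera-2 (adjusted p = 0.0535), and neither passed. Single arrays decided both: the 2102Ep change was 0.50 and passed (adjusted p = 0.0254) without 2102Ep control replicate 1 but was 0.18 without replicate 2, and the NTera-2 change passed without NTera-2 siSOX2 replicate 3 (-0.64, adjusted p = 0.0323) and without any one 2102Ep control array (adjusted p = 0.0194 to 0.0463). The other alpha chain of this type, ITGA4, changed by 0.04 and -0.04.

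The leukocyte-type alpha chains ITGAL, ITGAM, ITGAX, ITGAD and ITGAE gave 0 of 5 past the adjusted p in either line, and 1 had an unadjusted limma p under 0.05 in 2102Ep (ITGAX, -0.35, adjusted p = 0.0839) and 0 in NTera-2, beside 22.9% and 14.8% of all genes. ITGAX passed in 2102Ep without 2102Ep control replicate 2 (-0.49, adjusted p = 0.00951). Their partners ITGB2 and ITGB7 changed by 0.12 and 0.22 in 2102Ep, and neither passed. In all, 19 of the 25 integrins did not pass the adjusted p in 2102Ep, with changes from -0.35 (ITGAX) to 0.32 (ITGA9), and 23 did not in NTera-2, with changes from -0.52 (ITGA9) to 0.31 (ITGA8). In the RefSeq gene order ITGAM, ITGAX and ITGAD are neighbours.

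The difference in response between the lines was tested directly, as the change in 2102Ep minus the change in NTera-2. It was called for 4 of the 35 genes, against 1.66% of all genes, and these were again ITGA5, ITGAV, ITGB8 and ITGA6. By direction, 3 of them stand beside 0.989% of all genes with a higher response in 2102Ep, and 1 beside 0.668% with a lower one. This contrast uses the arrays of both knock-downs, so the recurrence of these genes is no separate evidence. The difference was 1.37 ± 0.17 for ITGB8 (log2, SE, adjusted p = 6.93e-05), 1.16 ± 0.18 for ITGA5 (adjusted p = 6e-04), 1.15 ± 0.20 for ITGAV (adjusted p = 0.00138) and -1.01 ± 0.18 for ITGA6 (adjusted p = 0.00182). The ITGAV difference dropped to 0.99 when 2102Ep control replicate 3 was omitted. That of ITGA6 lay under 2-fold when any of 4 single arrays was omitted, at -0.94 without 2102Ep control replicate 2, -0.93 without 2102Ep siSOX2 replicate 3, -0.95 without NTera-2 control replicate 1 and -0.88 without NTera-2 siSOX2 replicate 3. ITGA2 (0.84, adjusted p = 0.0058), ITGA3 (0.75, adjusted p = 0.0301) and ITGA9 (0.84, adjusted p = 0.0239) passed the adjusted p only, which made 7 of 35 past it, against 5.2% of all genes, and for ITGA3 and ITGA9 this was lost without any of 7 of the 12 arrays. Of the laminins, 0 of 10 passed the adjusted p for this difference, and 2 had an unadjusted limma p under 0.05, beside 14.9% of all genes. Without 2102Ep control replicate 2 the difference passed the adjusted p for LAMA2 (-0.63, adjusted p = 0.033) and for ITGAX (-0.68, adjusted p = 0.0155).

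Changes of the laminin genes after siSOX2 ran from -0.42 to 0.43 on the log2 scale in 2102Ep and from -0.12 to 0.42 in NTera-2. In 2102Ep 0 of 10 were called and 4 had an unadjusted limma p under 0.05, and in NTera-2 0 of 10 were called and 2 had one. Over all genes 1.98% were called and 22.9% had such a p in 2102Ep, and 0.657% and 14.8% in NTera-2. Only LAMA2, the alpha chain of muscle laminin, passed the adjusted p, in 2102Ep. It had 7.63, 7.57 and 7.48 in siSOX2 cells, against 8.12, 7.79 and 8.02 in control cells, which did not overlap. LAMA2 fell there by 0.42 (SE 0.12, adjusted p = 0.0272), and this was lost without 2102Ep control replicate 1 or 3 or without 2102Ep siSOX2 replicate 2 or 3, with changes of -0.35 to -0.42. In NTera-2 LAMA2 had 6.57, 6.63 and 6.93 in siSOX2 cells, against 6.72, 6.49 and 6.56 in control cells, which overlapped, with a change of 0.12 (adjusted p = 0.756).

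LAMB1 and LAMC1 encode the beta and gamma chains of the laminins of the early embryo. LAMB1 had 10.08, 10.27 and 10.06 in 2102Ep siSOX2 cells, against 9.95, 9.41 and 9.79 in 2102Ep control cells. LAMC1 had 10.74, 10.77 and 10.57 in 2102Ep siSOX2 cells, against 10.61, 9.96 and 10.21 in 2102Ep control cells. The 2102Ep groups were apart for LAMB1 and overlapped for LAMC1, control replicate 2 was the lowest array for both, and neither passed the test, with changes of 0.42 (adjusted p = 0.0541) for LAMB1 and 0.43 (adjusted p = 0.0537) for LAMC1. Without that array the changes were 0.27 (adjusted p = 0.226) and 0.28 (adjusted p = 0.223), while without control replicate 1 they were 0.53 (adjusted p = 0.0202) and 0.61 (adjusted p = 0.00408) and passed. LAMB1 also passed in 2102Ep without NTera-2 siSOX2 replicate 2 (adjusted p = 0.0488). In NTera-2 LAMB1 had 10.53, 10.33 and 10.71 in siSOX2 cells, against 10.59, 10.57 and 10.77 in control cells. LAMC1 had 11.14, 10.91 and 11.25 in NTera-2 siSOX2 cells, against 10.98, 10.97 and 11.07 in control cells. These overlapped, with changes of -0.12 for LAMB1 and 0.09 for LAMC1.

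LAMA1, the alpha chain of the laminin of the early embryo, had 7.96, 7.78 and 7.84 in 2102Ep siSOX2 cells, against 7.73, 7.42 and 7.59 in 2102Ep control cells. LAMA1 in NTera-2 had 9.14, 8.999 and 9.38 in siSOX2 cells, against 8.998, 8.99 and 9.07 in control cells. The changes of 0.28 in 2102Ep (adjusted p = 0.146) and 0.16 in NTera-2 (adjusted p = 0.633) did not pass, although the 2102Ep groups did not overlap. LAMA5, the alpha chain of a laminin that supports pluripotent cells in culture, had 9.90, 9.88 and 9.66 in 2102Ep siSOX2 cells, against 10.01, 9.39 and 10.04 in 2102Ep control cells. Its NTera-2 signals were 9.84, 9.91 and 9.98 in siSOX2 cells, against 9.72, 9.28 and 9.63 in control cells, which did not overlap. LAMA5 changed by 0.00 in 2102Ep (95% interval -0.33 to 0.33), where control replicate 2 stood apart, and by 0.37 in NTera-2 (95% interval 0.04 to 0.70, adjusted p = 0.267). The remaining LAMA4, LAMB2, LAMB3, LAMB4 and LAMC3 had changes between -0.22 and 0.21 in 2102Ep and between -0.08 and 0.42 in NTera-2.

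The lines also differed where both had been given the control siRNA. Between NTera-2 control cells and 2102Ep control cells 5 of the 35 genes were called, against 7.76% of all genes. In NTera-2 3 were higher, beside 4.49% of all genes, and 2 were lower, beside 3.28%. In all 16 passed the adjusted p alone, against 42.4%. The arrays did not overlap for 23 of the 35, where the share of all genes was 50.5%. The comparison shares the 2102Ep control arrays with the knock-down in 2102Ep, and reagent and siRNA amount differ with the line.

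The largest called differences were in the alpha chains of laminins. LAMA1 averaged 9.02 ± 0.04 in NTera-2 control cells and 7.58 ± 0.16 in 2102Ep control cells (SD, n = 3 each), a difference of 1.44 ± 0.12 (log2, SE, adjusted p = 3.09e-08). LAMA2 averaged 6.59 ± 0.12 in NTera-2 control cells (arrays at 6.72, 6.49 and 6.56) and 7.98 ± 0.17 in 2102Ep control cells, a difference of -1.38 ± 0.12 (adjusted p = 8.04e-08). The lines did not overlap for either gene, so NTera-2 had more LAMA1 and less LAMA2. The partner chains LAMB1 (0.93, adjusted p = 3.07e-05) and LAMC1 (0.75, adjusted p = 0.000346) were also higher in NTera-2, under 2-fold, and LAMB3, a chain of epithelial laminin, was lower (-0.55, adjusted p = 0.000711). LAMA5 (-0.27) and LAMB2 (-0.23) did not pass, and without 2102Ep control replicate 2 they did, at -0.48 (adjusted p = 0.00717) and -0.44 (adjusted p = 0.0156). The NTera-2 siSOX2 arrays of LAMA1 lay above, and those of LAMA2 below, all 6 arrays of 2102Ep.

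**Figure D4:**
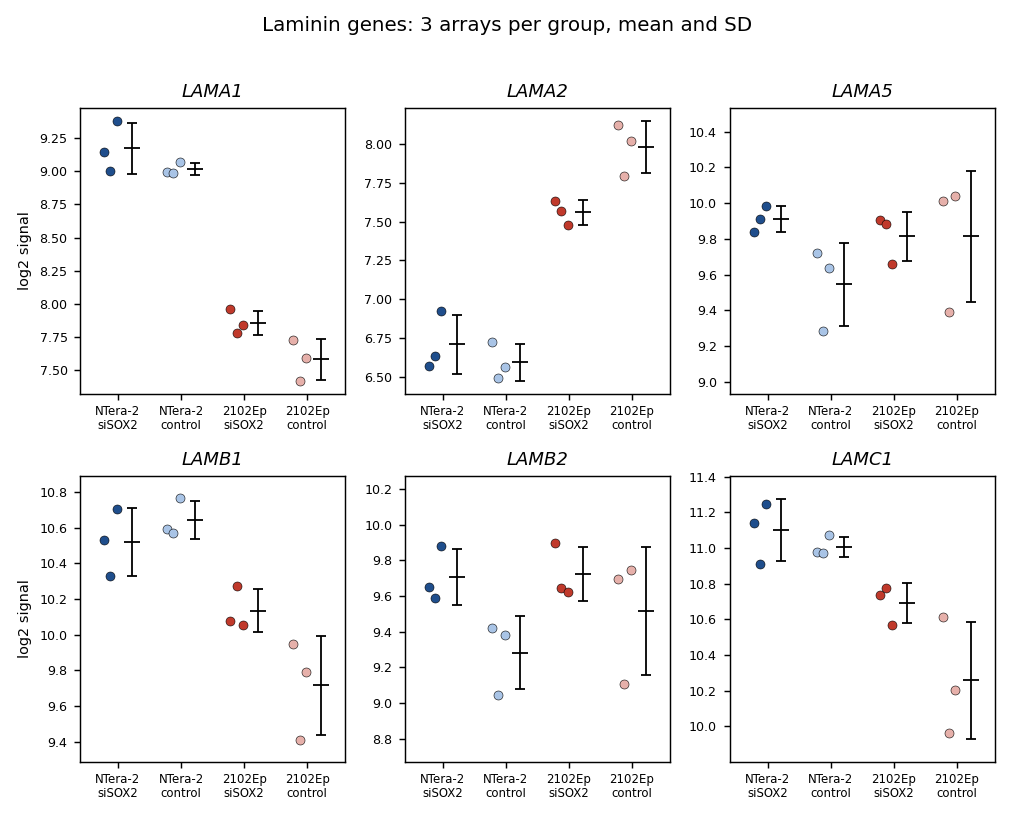
Log2 signal (vertical axis, with its own range in each panel) of 6 laminin genes on each array (points), with NTera-2 on the left and 2102Ep on the right and siSOX2 before control in each line, and the group mean and SD (n = 3) as a black bar. LAMA1 is at 8.99 to 9.38 in NTera-2 and at 7.42 to 7.96 in 2102Ep, and LAMA2 runs the other way.

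Of the integrins, ITGA5 averaged 9.85 ± 0.13 in NTera-2 control cells and 8.68 ± 0.25 in 2102Ep control cells (SD, n = 3 each), a difference of 1.17 ± 0.13 (log2, SE, adjusted p = 1.15e-06). ITGAV averaged 9.33 ± 0.08 and 8.22 ± 0.29 in NTera-2 and 2102Ep control cells, a difference of 1.10 ± 0.14 (adjusted p = 6e-06), which was 0.94 without 2102Ep control replicate 3. ITGA9 averaged 8.38 ± 0.15 and 9.52 ± 0.32 in these groups, a difference of -1.14 ± 0.15 (adjusted p = 8.25e-06), which was -0.96 without 2102Ep control replicate 1. ITGA5 and ITGAV were thus higher, and ITGA9 lower, in NTera-2 control cells, with no overlap of the arrays. The other integrins past the adjusted p were ITGA4 (0.69), ITGA7 (0.55), ITGB8 (0.54) and ITGA2 (0.40), higher in NTera-2, and ITGAX (-0.77), ITGB2 (-0.50), ITGA2B (-0.46) and ITGA3 (-0.42), lower in NTera-2. ITGA2 lost this without NTera-2 control replicate 3, and ITGA3 without 2102Ep control replicate 1 or NTera-2 control replicate 2 or 3, while ITGA6 (0.28) passed without 2102Ep control replicate 2 (0.35, adjusted p = 0.0452).

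Genes of integrin ligands and basement membrane were examined beside their receptors. Of 22, 4 rose and 1 fell past the threshold in 2102Ep, 1 fell in NTera-2, and 5 were called for the difference in response, all higher in 2102Ep. The shares of all genes called were 1.98% in 2102Ep, 0.657% in NTera-2 and 1.66% for the difference. FN1, fibronectin, the ligand of the ITGA5 receptor, had 11.61, 11.49 and 11.49 in 2102Ep siSOX2 cells, against 9.34, 8.71 and 9.18 in 2102Ep control cells. In NTera-2 it had 11.84, 11.72 and 12.04 in siSOX2 cells, against 10.85, 11.26 and 11.07 in control cells. The groups were apart in both lines, and FN1 rose 5.48-fold in 2102Ep (log2 change 2.45 ± 0.15, SE, adjusted p = 3.26e-09) and by 0.80 in NTera-2 (adjusted p = 0.00275), with a difference in response of 1.65 (adjusted p = 8.42e-05).

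NID1, nidogen, which links laminin to the collagen network, rose by 1.01 in 2102Ep (adjusted p = 8.41e-05), against -0.42 in NTera-2 (adjusted p = 0.126), and FRAS1, a basement membrane protein, rose by 1.02 (adjusted p = 0.000114), against -0.13 (adjusted p = 0.793). FBN2, a fibrillin named only to complete the count, rose by 1.01. The rises of NID1, FRAS1 and FBN2, in that order, were under 2-fold without 2102Ep control replicate 2, at 0.87, 0.85 and 0.77, and without 2102Ep siSOX2 replicate 1, at 0.89, 0.96 and 0.93, and that of NID1 also without 2102Ep control replicate 3, at 0.996. EDIL3, a ligand of ITGAV receptors, had 7.89, 8.23 and 7.75 in 2102Ep siSOX2 cells, against 10.56, 11.08 and 10.21 in 2102Ep control cells, and 6.46, 6.04 and 6.63 in NTera-2 siSOX2 cells, against 8.35, 8.77 and 8.61 in NTera-2 control cells. It fell by 2.66 in 2102Ep (adjusted p = 3.56e-08) and by 2.20 in NTera-2 (adjusted p = 1.86e-06), with no overlap in either line.

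TNC, tenascin, a ligand of the ITGA9 receptor, had 9.74, 9.68 and 9.55 in 2102Ep siSOX2 cells, against 9.02, 8.46 and 8.83 in 2102Ep control cells. In NTera-2 it had 9.36, 9.22 and 9.40 in siSOX2 cells, against 10.07, 10.60 and 10.21 in control cells. TNC rose by 0.89 in 2102Ep (adjusted p = 0.000355) and fell by 0.96 in NTera-2 (adjusted p = 0.00046), both under 2-fold, and the difference in response was 1.86 ± 0.21 (log2, SE, adjusted p = 2.06e-05). Between control cells 10 of the 22 were called, 8 higher in NTera-2, beside 7.76% of all genes called and 4.49% called higher, among them MFGE8 (1.98), FN1 (1.99), FREM1 (1.54) and NID1 (1.71).

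Latent TGF-beta is a ligand of the ITGAV and ITGB8 pair. Of 9 genes of the TGF-beta latent complex, 1 was called in 2102Ep and 0 in NTera-2, where 5 had an unadjusted limma p under 0.05. Over all genes 1.98% were called in 2102Ep, and in NTera-2 0.657% were called and 14.8% had such a p. TGFB1 had 10.49, 10.39 and 10.44 in 2102Ep siSOX2 cells, against 8.48, 8.41 and 8.44 in 2102Ep control cells. In NTera-2 it had 9.74, 10.08 and 9.95 in siSOX2 cells, against 8.95, 9.40 and 8.94 in control cells. TGFB1 rose 4.005-fold in 2102Ep (log2 change 2.00 ± 0.13, SE, adjusted p = 4.45e-09) and by 0.83 in NTera-2 (adjusted p = 0.000453), with no overlap in either line, and the difference in response was 1.18 (adjusted p = 0.000432).

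**Figure D5:**
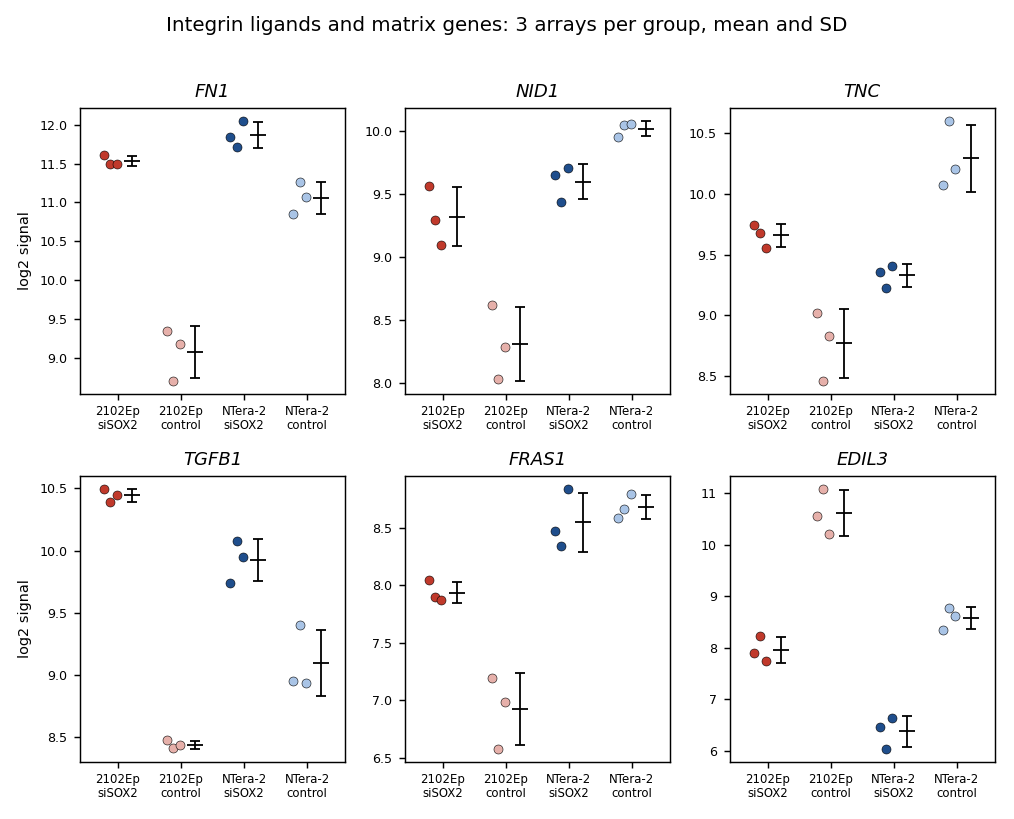
Log2 signal (vertical axis, with its own range in each panel) of 6 genes of integrin ligands and matrix on each array (points), by line and siRNA, with the group mean and SD (n = 3) as a black bar. FN1 and TGFB1 are higher and EDIL3 is lower with siSOX2 in both lines, while TNC is higher with siSOX2 in 2102Ep and lower with it in NTera-2.

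Inside the cell, integrins are tied to actin by talin, kindlin and other adaptors. Of 27 measured adaptor and focal adhesion genes of 29 listed, 0 were called in either line, with 9 at an unadjusted limma p under 0.05 in 2102Ep and 6 in NTera-2, beside 22.9% and 14.8% of all genes. By the adjusted p alone 6 rose and 0 fell in 2102Ep, and 1 rose and 2 fell in NTera-2, where 12.7% and 4.94% of all genes passed in either direction. The talin gene TLN2, chosen after its values were seen, had 8.18, 7.94 and 7.90 in 2102Ep siSOX2 cells, against 7.46, 7.10 and 7.39 in 2102Ep control cells, and 9.35, 9.18 and 9.43 in NTera-2 siSOX2 cells, against 8.29, 8.50 and 8.49 in NTera-2 control cells. It rose by 0.69 (adjusted p = 0.000656) and by 0.89 (adjusted p = 0.000157). Of 12 other laminin and matrix receptors measured of 16, 0 were called in either line, with 4 at an unadjusted limma p under 0.05 in each line, against the same 22.9% and 14.8% of all genes. Of 9 tetraspanins and other membrane partners of integrins, 0 were called in either line, with 3 in 2102Ep and 1 in NTera-2 at an unadjusted limma p under 0.05, read against the same shares.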

How the data were processed

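Integrin and laminin genes were described in 12 arrays of 2 embryonal carcinoma lines. The values are the deposited log2 signals per probe set, which the authors made by robust multi-array averaging of Affymetrix Human Gene 1.0 ST arrays (background correction, quantile normalization and median polish). No source states the log base, and the range of 1.57 to 14.98 was read as log2. The version of that software was not given in the sources used, and in the submitters' processing notes limma has no version. Differences in such array values may be shrunk at both ends of the signal range, so changes of dim genes may be understated, which was not tested.

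Of 32321 probe sets, 19158 were annotated to 1 gene. Symbols were updated by gene ID through RefSeq (18376 of 18404 genes). Genes with more than 1 probe set were read from the brightest one on average, and each integrin and laminin gene had 1. All 12 arrays were fitted with a mean per group in limma 3.58.1 under R 4.3.3 (lmFit, contrasts and eBayes; data.table, version 1.17.8), with Benjamini-Hochberg adjustment over all 18404 genes of a contrast. Plots were drawn with matplotlib 3.10.9 under Python 3.11.15. The procedure was tested on simulated data with 200 changed genes. The labels call the replicates biological, and precision is limited by how many arrays there are. An exact two-sided permutation test of 3 arrays against 3 cannot go below 0.1. In bulk samples fewer cells with a transcript and less RNA per cell cannot be told apart.

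Members and gene lists were chosen with earlier results of these data known. Values are given in full for members called in any contrast and for ITGB1, ITGA6, ITGAV, ITGB5, LAMA1, LAMA5, LAMB1 and LAMC1, and other members are named where the adjusted p was 0.05 or less in a knock-down or given by counts and ranges. Of the other lists, up to 4 called genes per contrast with the smallest adjusted p are named, with some additions. FBN2 was added to complete counts. TLN2, not called in either knock-down, was added after its values were seen, and single marker genes are named outside this rule. Platelet and fibroblast markers were also listed, and 0 of 5 and 0 of 7 measured were called in either knock-down (with 3 and 2 at an unadjusted limma p under 0.05 in 2102Ep and 0 and 5 in NTera-2, beside 22.9% and 14.8% of all genes). Alternatives tried were a block for the replicate number, fits of only the compared groups, leaving out genes under the median signal, and median centring of the arrays. Others were a further quantile normalization, the mean of a gene's probe sets, no fold threshold, and leaving out each array.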

Additional observations from a re-analysis of the deposited data

Results flagged for a closer look

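For 14 named genes the response to siSOX2 differed between 2102Ep and NTera-2 by limma's test of the difference itself (2102Ep minus NTera-2, log2, adjusted p of 0.05 or less). Among the integrins the difference was 0.84 for ITGA2, 0.75 for ITGA3, 1.16 for ITGA5, -1.01 for ITGA6, 0.84 for ITGA9, 1.15 for ITGAV and 1.37 for ITGB8. No laminin gene met this rule, with 2 of 10 at an unadjusted limma p under 0.05, as were 14.9% of all genes. Among the ligand and matrix genes it was 1.17 for FBN2, 1.65 for FN1, 1.15 for FRAS1, 1.43 for NID1 and 1.86 for TNC, and for TGFB1 it was 1.18. The differences of FBN2 and FRAS1 were 0.93 and 0.98 without 2102Ep control replicate 2. SOX2 itself differed by -2.49, since its RNA fell further in 2102Ep, and its part in the other differences was not tested. The lines also differed in reagent and siRNA amount, which cannot be told apart from the line.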

How the results depend on the processing

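Named results past the adjusted p kept their direction under each alternative run. Smaller changes of the 35 genes turned sign in some fits with an array left out, among them LAMA5 and ITGA2 in 2102Ep and ITGB5 in NTera-2, and the largest of these was 0.13 in size in the fit of all arrays. Of 307 values under alternatives that kept all arrays of the contrast, 303 stayed on the same side of the threshold, and of 576 values with an array left out, 531 did. The 4 exceptions of the first kind were ITGA6 in 2102Ep and in the difference in response with arrays centred on their medians (-0.996 and -0.96), and ITGB5 and LAMA2 in 2102Ep with only the groups compared (0.47 and -0.42, no longer past the adjusted p). The cause was not tested. Both counts include fits that could move little. With no fold threshold every such result passes by construction. The mean of a gene's probe sets leaves the change of a gene with 1 probe set as it was. Leaving out an array of a group outside the contrast also leaves the change as it was, and acts only through the p. With no fold threshold 7 of the 35 genes were called in 2102Ep (1 laminin), 2 in NTera-2 (2 integrins), 7 in the difference in response (7 integrins) and 16 between the control lines (11 integrins and 5 laminins), by construction of the rule. With genes under the median signal left out, 1 laminin was called between the control lines, because LAMA2 is under that median, as are 21 of the 35 genes. Leaving out each array in turn gave 3 to 4 called genes in 2102Ep, 0 in NTera-2, 3 to 5 in the difference in response and 4 to 5 between the control lines. With the replicate number as a block, the counts were 4, 0, 4 and 5. Pairing by replicate number was examined on what was left of each array after the mean of its group was subtracted. These remainders of same-numbered siSOX2 and control arrays correlated at 0.07 to 0.18 in 2102Ep and at -0.25 to 0.14 in NTera-2. Not every remainder correlated best with its own number, so the numbers were not taken as pairs. Whole arrays of the same line with the other siRNA correlated at 0.981 to 0.993. With 3 arrays per group the median SE of a log2 change was 0.12, and changes well under 2-fold in dim genes lie near that limit.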
